A study of Rattus norvegicus with 24 samples.

Results

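Axon guidance genes encode the cues that steer growing nerve fibers and the receptors that read them. A set of 67 such genes was taken from the 32883 gene rows measured in rat urethra, by gene symbol alone: ephrins, semaphorins, Slits and netrins as ligands (35 genes), and Eph receptors, plexins, Robo and Unc5 receptors, Dcc and Neo1 as receptors (32 genes). No measured value entered this rule by symbol, although the set was chosen with earlier results of these data known. Virgin adult female Sprague-Dawley rats underwent simulated vaginal delivery (SVD), a pudendal nerve crush followed by vaginal distension, and 1 h later received an intra-aortic injection. The injection held saline, allogeneic mesoangioblasts (MABs-allo) or allogeneic mesoangioblasts overexpressing VEGF (MABs-allo-VEGF), and urethras were collected 3d or 7d later, with 4 samples in each of the 6 groups. MABs are vessel-associated progenitor cells, here isolated from hind limb muscle. They were marked with a lentiviral eGFP and luciferase reporter driven by the CMV promoter, and the VEGF vector used the SFFV promoter and also carried a truncated CD34. All sequenced rats had SVD, so an uninjured level was not measured here. The labels add the word recovery to replicates 6 and 7 of MABs-allo-VEGF at 7d. The sources do not say whether the 4 samples of a group came from 4 rats, and p-values therefore measure the spread between these samples.

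Ephrins are anchored in the membrane and bind Eph receptor tyrosine kinases on neighboring cells, and signals pass into both cells. Class 3 semaphorins are secreted and act through neuropilins paired with plexins, whereas many other semaphorins are membrane proteins that bind plexins directly. Slits repel growth cones through Robo receptors, and netrins attract through Dcc or neogenin and repel through Unc5 receptors. The same families pattern blood vessels and epithelia, so their RNA in a urethra need not come from nerves. In whole tissue, fewer cells of a type and less RNA per cell cannot be told apart.

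Values are normalized gene counts, that is, reads on a gene divided by the size factor of the sample. Totals ran from 2170695 to 10166052 reads, so that 1 read stood for 1.67 to 9.23 normalized counts. MABs-allo samples at 3d had 2170695 to 4491900 reads, against 4851797 to 5249467 in saline at 3d. A pair of libraries stood apart from their groups on the first principal component of the 500 most variable genes, which held 70.7% of the variance. Saline 3d replicate 6 scored 54.6 while saline 3d replicates 8, 9 and 10 scored -52.3, -14.9 and -6.43. Replicate 8 thus lay within the range of the 7d samples (-55.8 to -26.6), and it was kept in both sets of samples used below. MABs-allo-VEGF 3d replicate 4 scored 0.702 while the others of its group scored 57.3 to 75.2. The 3d results are therefore given with all 24 samples and without these 2. Leaving them out moves each group away from the other by construction, and the calls it adds are no independent support. Summed epithelial markers were 2454 in saline 3d replicate 8 and 2042 in MABs-allo-VEGF 3d replicate 2, and 15629 or more in the other 22 samples.

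A read was found for 62 of the 67 genes. Efna2, Epha8, Epha10, Robo4 and Unc5d had none in any sample, and Dcc, Efna3, Efna5, Sema5b, Sema7a and Unc5a had 3 reads or fewer in every sample. At a mean normalized count of at least 2, the limit for testing, 55 genes remained (30 ligands and 25 receptors), and Robo3 was the other gene below it.

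Among ligands the semaphorins held 64.0% of the summed mean count, ephrin-B ligands 16.1%, Slits 13.9%, ephrin-A ligands 5.30% and netrins 0.604%. Among receptors the plexins held 43.1%, EphB receptors 20.8%, EphA receptors 19.2%, Unc5 receptors 10.01%, Dcc and neogenin 4.66% and Robo receptors 2.28%. These libraries count the 3′ end of each transcript and so need no division by length, although a gene whose 3′ end is poorly annotated is undercounted. The most abundant ligand was Sema3c, a secreted semaphorin, with a mean of 3064 normalized counts over the 24 samples, followed by Efnb2 (1722), Slit2 (1113), Sema4a (904), Sema4c (809) and Slit3 (770). The most abundant receptor was Plxnb2, a plexin that binds class 4 semaphorins, with 2070, followed by the netrin receptor Unc5b (877), Epha3 (875) and Ephb4 (758), the main receptor of ephrin-B2.

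**Figure D1:**
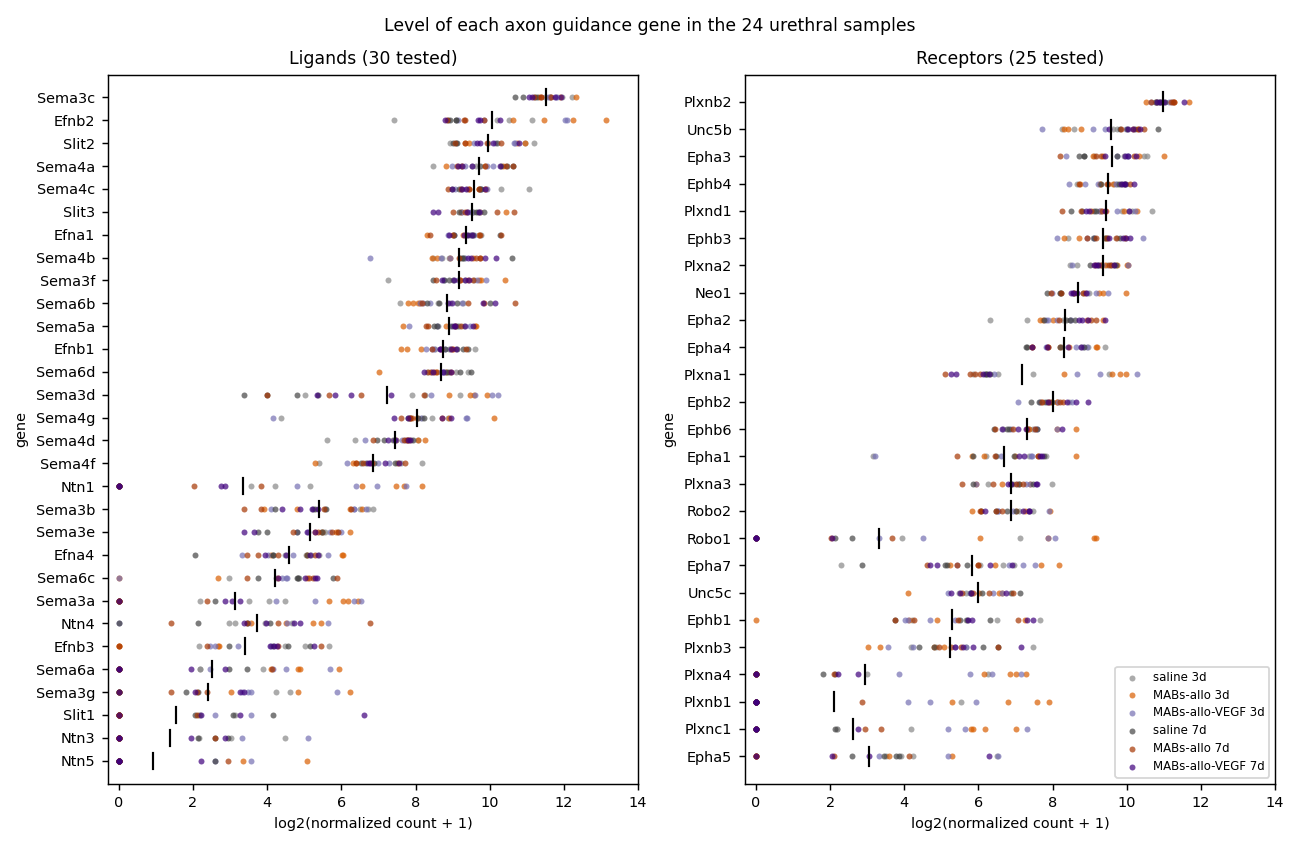
Level of the 55 tested genes in the 24 samples on the log2(normalized count + 1) scale, ligands at left and receptors at right, with 1 point per sample colored by group and a vertical bar at the mean. Sema3c and Plxnb2 lead their panels, and Ntn1, Robo1, Plxna4, Plxnb1 and Plxnc1 run from 0 to more than 100 normalized counts.

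Of the abundant genes, Plxnb2, Sema3c and Slit3 were not called between treatments. Plxnb2 averaged 1867 ± 131 (SD, n = 4) after saline, 2241 ± 805 after MABs-allo and 2005 ± 384 after MABs-allo-VEGF at 3d, and 1913 ± 144, 2208 ± 395 and 2187 ± 553 in the same order at 7d. Sema3c averaged 3684 ± 836, 3644 ± 1105 and 3312 ± 270 at 3d, and 2101 ± 408, 2720 ± 364 and 2926 ± 862 at 7d. For Slit3 the 6 group means lay between 559 and 983.

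Cell treatment was compared with saline at 3d to ask which guidance genes differed early after the injury. After MABs-allo, 8 guidance genes were higher and 1 was lower than after saline. The higher ones were the receptors Plxnb1, Robo1, Plxna4, Plxnc1 and Plxna1 and the ligands Ntn1, Sema3a and Efnb2, and the lower one was the ligand Efnb3. Genes were called in limma on log2(normalized count + 1) when the difference exceeded 1 in size with its adjusted p under 0.05. The 9 genes are 16.4% of the 55 tested, and 12.3% of all 16287 genes tested were called (9.4% higher and 2.86% lower). At an unadjusted p below 0.05 there were 18 guidance genes (32.7%), and 31.4% of all genes. These shares are near those of the whole transcriptome. The median log2 fold change was 0.11 over the 55 genes and 0.07 over all genes.

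Promoter sequences are shown for the 3 called receptors and the called ligand that had an entry in the RefSeq table (assembly GRCr8), since these genes differed in the same comparison. Of the 67 genes 52 had an entry there, and Ntn1, Plxna1, Plxna4, Sema3a and Efnb3 had none. Each sequence is the 250 bases before an annotated start, 5′ to 3′ on the strand of the gene, and Robo1 has a pair of starts. Capitals mark matches to the GC box (GGGCGG or CCGCCC, bound by Sp1 family factors), the E-box CAGCTG (a site of myogenic bHLH factors) and the TATA box (TATAAA or TTTATA). The positions are chr8:118622911-118623160 on the plus strand for Plxnb1, chr7:31430606-31430855 on the minus strand for Plxnc1, chr11:24067706-24067955 and chr11:24714445-24714694 on the plus strand for Robo1, and chr16:87484965-87485214 on the plus strand for Efnb2.
Plxnb1: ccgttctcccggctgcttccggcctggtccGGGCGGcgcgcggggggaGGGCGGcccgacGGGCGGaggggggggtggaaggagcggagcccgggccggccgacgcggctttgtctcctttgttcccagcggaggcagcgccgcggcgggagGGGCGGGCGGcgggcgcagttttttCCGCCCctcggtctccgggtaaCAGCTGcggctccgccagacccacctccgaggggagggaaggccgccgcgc
Plxnc1: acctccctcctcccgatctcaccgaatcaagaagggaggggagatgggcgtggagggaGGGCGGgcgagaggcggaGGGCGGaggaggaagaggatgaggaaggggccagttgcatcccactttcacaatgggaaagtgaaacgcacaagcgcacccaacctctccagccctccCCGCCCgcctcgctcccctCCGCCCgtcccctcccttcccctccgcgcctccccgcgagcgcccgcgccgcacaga
Robo1, upstream start: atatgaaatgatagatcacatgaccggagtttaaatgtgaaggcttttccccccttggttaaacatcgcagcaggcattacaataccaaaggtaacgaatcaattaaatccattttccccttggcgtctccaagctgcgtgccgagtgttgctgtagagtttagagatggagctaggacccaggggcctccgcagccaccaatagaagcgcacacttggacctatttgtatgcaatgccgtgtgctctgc
Robo1, downstream start: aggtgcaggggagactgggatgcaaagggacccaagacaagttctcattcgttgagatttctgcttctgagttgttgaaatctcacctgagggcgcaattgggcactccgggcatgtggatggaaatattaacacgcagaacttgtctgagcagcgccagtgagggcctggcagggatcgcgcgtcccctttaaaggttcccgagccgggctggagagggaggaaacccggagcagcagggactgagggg
Efnb2: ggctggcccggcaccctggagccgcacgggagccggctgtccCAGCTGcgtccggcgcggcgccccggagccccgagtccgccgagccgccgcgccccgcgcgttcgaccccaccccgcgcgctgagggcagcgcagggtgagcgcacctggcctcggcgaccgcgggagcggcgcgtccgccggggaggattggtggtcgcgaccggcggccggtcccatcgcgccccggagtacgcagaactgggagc
The Plxnb1 sequence holds 6 GC boxes and 1 E-box, and that of Plxnc1 holds 4 GC boxes. Efnb2 has 1 E-box, and neither Robo1 sequence has a match to any of the 3 motifs. Their GC contents are 78.0%, 68.8%, 48.0%, 57.2% and 80.4% in the order printed, against a median of 51.2% over the 33469 promoters of the table. A GC box lies in 30.5% of those promoters, the TATA box in 12.9%, and the E-box in 4007 of the 33469. These matches describe letters and not bound sites, and no motif of the 3 occurs in all of the sequences.

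Plxnb1, the receptor of Sema4d, had the largest difference. Its normalized counts were 44.8, 0, 0 and 0 in saline 3d replicates 6, 8, 9 and 10, and 192, 109, 240 and 38.0 in MABs-allo 3d replicates 1 to 4. After MABs-allo-VEGF at 3d they were 16.2, 25.0, 60.5 and 0. The saline value of 44.8 came from replicate 6, and it exceeded the lowest MABs-allo sample, so the groups overlapped. MABs-allo was higher by 5.51 on the log2 scale (SE 1.17, limma adjusted p = 0.00746).

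Robo1, a Slit receptor, had 138, 0, 14.3 and 0 after saline and 554, 235, 572 and 65.1 after MABs-allo. MABs-allo-VEGF samples at 3d had 21.6, 267, 232 and 8.91. The low MABs-allo sample and saline replicate 6 again crossed, and the log2 fold change for MABs-allo against saline was 5.29 (SE 1.37, limma adjusted p = 0.0159). Its ligand Slit2 was present throughout, at 486 to 2340 after saline and 646 to 1986 after MABs-allo, with a log2 fold change of -0.14 (SE 0.45, limma adjusted p = 0.861).

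The A-type plexins carry the signal of class 3 semaphorins. Plxna4 had 75.8, 0, 0 and 7.04 after saline and 114, 153, 129 and 70.5 after MABs-allo, a log2 fold change of 4.51 (SE 1.11, limma adjusted p = 0.0134). For Plxna1 the counts were 737, 176, 57.2 and 91.5 after saline and 902, 1001, 775 and 315 after MABs-allo, a log2 fold change of 2.07 (SE 0.67, limma adjusted p = 0.0394). In both genes saline replicate 6 lay inside the range of the MABs-allo group. The other A-type plexins were not called. Plxna2 had 353 to 711 after saline and 684 to 1051 after MABs-allo, and Plxna3 had 75.8 to 251 and 60.2 to 166.

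Plxnc1, the receptor of Sema7a, had 17.2, 0, 3.57 and 3.52 after saline and 56.8, 71.1, 129 and 54.2 after MABs-allo. Here the groups did not overlap, and the log2 fold change was 4.07 (SE 1.22, limma adjusted p = 0.0292). Sema7a itself had 3 reads or fewer in every sample.

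Among ligands, Ntn1 (netrin-1, a secreted attractant and repellent) had 34.4, 0, 10.7 and 17.6 after saline and 206, 290, 175 and 92.2 after MABs-allo. Its groups were apart, with a log2 fold change of 4.24 (SE 1.03, limma adjusted p = 0.0128). Its receptors did not pass the thresholds: Unc5b had a log2 fold change of -0.10 (limma adjusted p = 0.895) and Neo1 0.73 (limma adjusted p = 0.0886), and Dcc was at 3 reads or fewer in every sample. Sema3a, which collapses growth cones through neuropilin-1, had 10.3, 15.7, 21.4 and 3.52 after saline and 49.7, 71.1, 64.6 and 86.8 after MABs-allo. Saline replicate 6 stayed low for this gene, the groups did not overlap, and the log2 fold change was 2.53 (SE 0.85, limma adjusted p = 0.0459).

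Ephrin-B ligands went in different directions. Efnb2, which marks arterial endothelium and also occurs in epithelia, had 2276, 169, 1172 and 1467 after saline and 8975, 2823, 4819 and 1579 after MABs-allo, a log2 fold change of 2.05 (SE 0.67, limma adjusted p = 0.0411). The lowest saline value was that of replicate 8, the library with few epithelial markers. Without that library the log2 fold change was 1.24 and the adjusted p 0.207 in limma. Efnb3, an ephrin known as a midline barrier to axons, had 3.44, 31.4, 50.03 and 21.1 after saline and 0, 5.47, 0 and 5.42 after MABs-allo. Those values rest on 29 reads against 2, a ratio of 8.05 (95% exact counting interval 2.04 to 69.7), and the fitted log2 fold change was -2.98 (SE 0.999, limma adjusted p = 0.0457). Efnb1 had 368 to 772 after saline and 194 to 518 after MABs-allo, and its log2 fold change of -0.85 (limma adjusted p = 0.0445) was short of the size threshold.

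**Figure D2:**
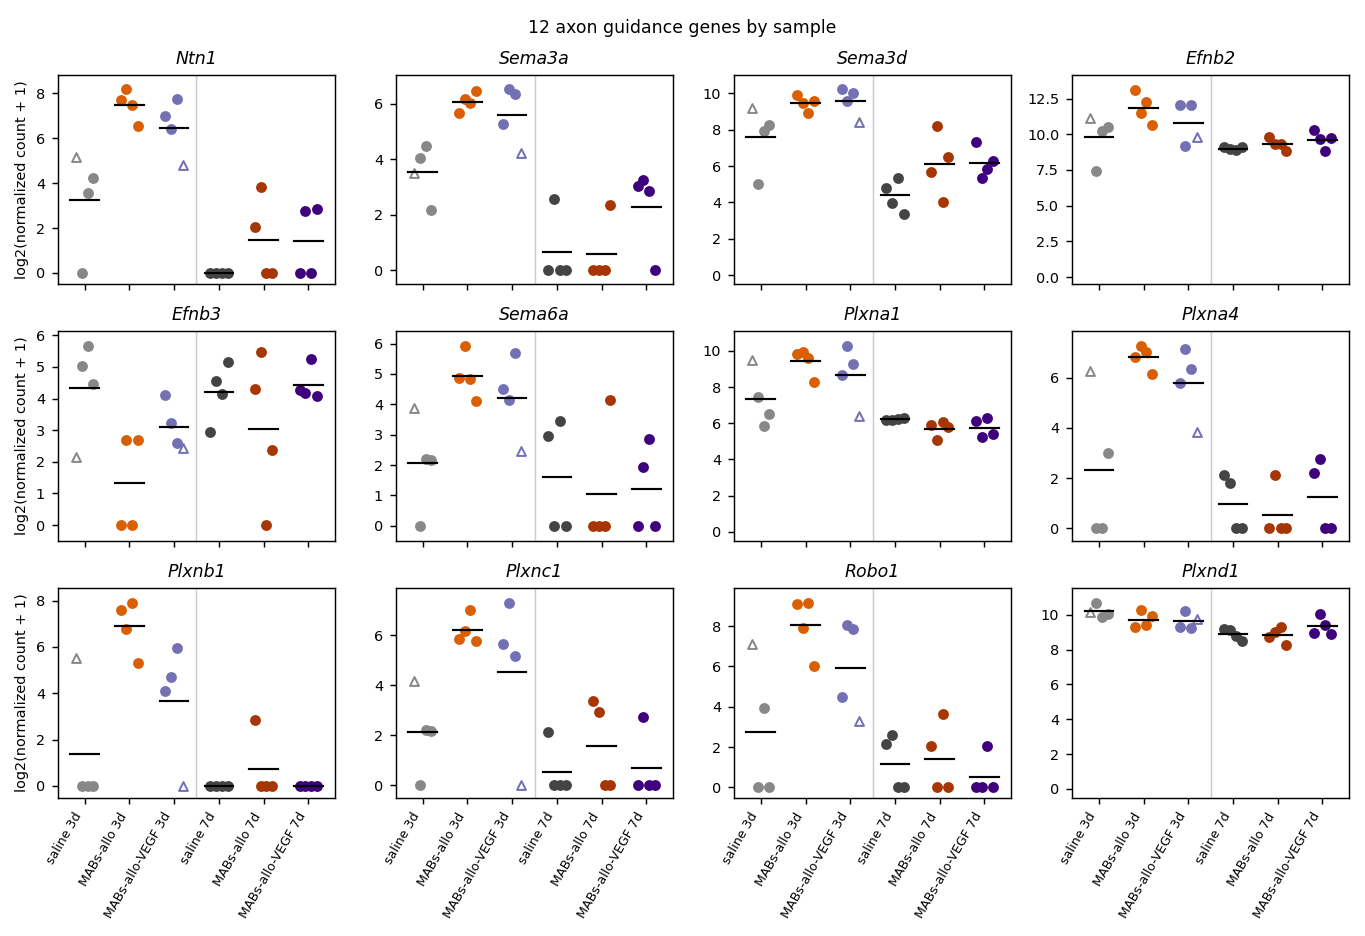
Per-sample values of 12 guidance genes on the log2(normalized count + 1) scale, in the 6 groups, with the group mean as a line. Open triangles are replicate 6 of saline and replicate 4 of MABs-allo-VEGF, both at 3d, which lie with the opposite group for Plxna1, Plxna4, Plxnb1 and Robo1.

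Of the 55 genes, 4 were higher in every MABs-allo sample than in any saline sample at 3d (Ntn1, Plxnc1, Sema3a and Sema6a) and 0 were lower in every sample, against 9.44% and 5.22% of all genes. Sema6a, a membrane ligand of A-type plexins, had 16.3 to 60.2 after MABs-allo and 0 to 13.8 after saline, with a log2 fold change of 2.88 (limma adjusted p = 0.0733). The largest falls that did not pass were those of Ntn3 (-2.41), Epha5 (-2.33) and Ephb1 (-1.95), each below 200 normalized counts in every sample of both groups.

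Calls in this comparison depended on single libraries and on the samples in the fit, and counts over all genes moved with them. With only the 8 samples of the groups compared, limma called 0 guidance genes and 11 of all 16287 genes. Without saline replicate 8 only Plxnb1 was called, at a log2 fold change of 5.05 (limma adjusted p = 0.039), and over all genes the calls fell from 1997 to 369. Without saline replicate 6 there were 12 guidance genes and 2816 of all genes, and without MABs-allo replicate 3 there were 3 and 929. Counts were 4 and 1107 without saline replicate 9, 5 and 1625 without saline replicate 10, and 4 and 734 without MABs-allo replicate 1. Sema3a was called in 0 of the 8 fits that leave out a sample, and Plxnb1 in 8. On the recovered reads edgeR called 2 guidance genes (Ntn1 and Plxnc1) and 8.24% of all genes, and DESeq2 called 4 (Ntn1, Plxnc1, Sema3a and Efnb2) and 11.8% of all genes. Scaling each sample to the same total moved the median of all genes to -0.19, and the split of all calls from 1531 higher and 466 lower to 1109 and 1021, and 7 guidance genes were called.

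After MABs-allo-VEGF, 0 of the 55 genes passed the thresholds against saline at 3d in limma, where 0.0307% of all genes did (5 genes). Unadjusted p fell below 0.05 for 5 guidance genes and 17.9% of all genes. edgeR called 0 guidance genes and DESeq2 called 1 (Ntn1), where it called 2.44% of all genes. The largest rises were those of Plxna4, Ntn1 and Robo1. Ntn1 had 124, 83.3, 212 and 26.7 in replicates 1 to 4, a log2 fold change of 3.24 (SE 1.03, limma adjusted p = 0.122). Plxna4 had 54.1, 142, 80.7 and 13.4, with a log2 fold change of 3.47 (SE 1.11, limma adjusted p = 0.124). For Robo1 the log2 fold change was 3.17 (SE 1.37, limma adjusted p = 0.22). Replicate 4 was the lowest sample of its group for all 3 genes. The largest falls were those of Ephb1 (-1.47), Efnb3 (-1.23) and Sema6c (-0.87), with adjusted p of 0.493, 0.547 and 0.699 in limma.

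Leaving out saline replicate 6 alone gave 5 guidance genes and 1112 of all 16287 genes after MABs-allo-VEGF, and leaving out its replicate 4 alone gave 5 and 1258. Without the 2 libraries, 7 guidance genes were called after MABs-allo-VEGF (12.7% of 55, where 13.6% of all genes were called) and 12 after MABs-allo (21.8%, where 18.1% of all genes were called). The log2 fold changes after MABs-allo-VEGF were then 5.50 for Robo1, 5.43 for Plxna4, 4.92 for Plxnb1, 4.59 for Plxnc1, 4.44 for Ntn1, 2.90 for Sema3d and 2.78 for Plxna1. Their adjusted p in limma was smallest for Plxnb1 (0.000592) and largest for Sema3d (0.0226). Both comparisons use the same saline samples, so their values are not independent of each other.

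**Figure D3:**
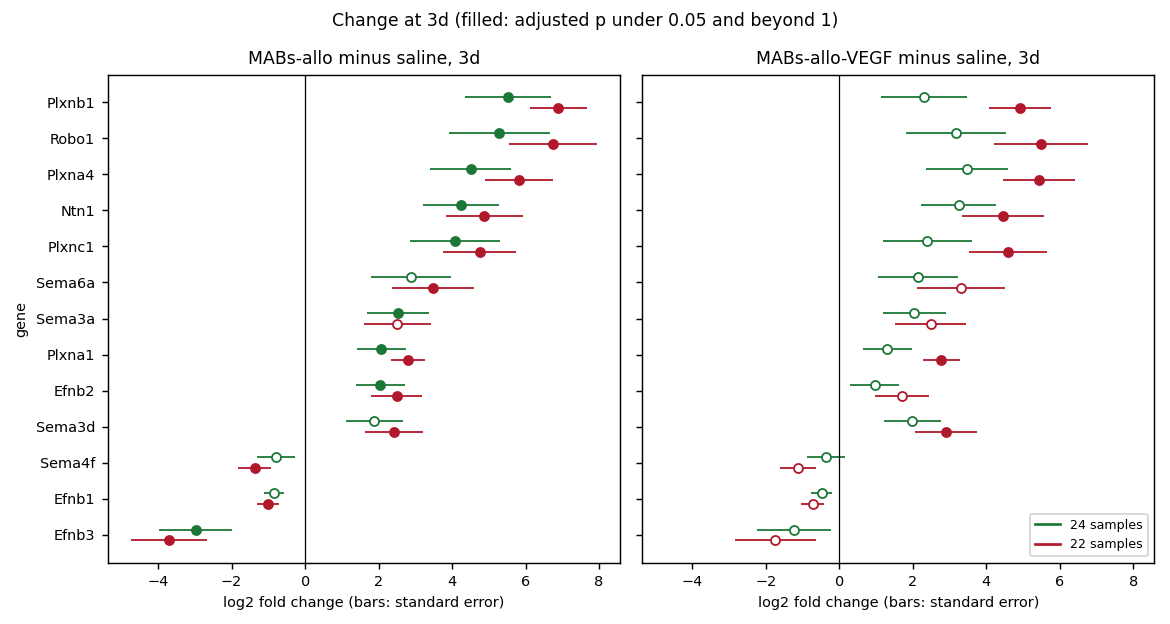
Log2 fold change with its standard error at 3d against saline, after MABs-allo at left and after MABs-allo-VEGF at right, for the 13 genes called after MABs-allo in either set of samples. With 24 samples 9 points are filled at left and 0 at right, and without the 2 libraries 12 and 7 are filled.

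Between both cell treatments at 3d, 0 guidance genes were called, and 0.00614% of all genes (1 gene). Unadjusted p fell below 0.05 for 6.13% of all genes and 1 guidance gene, Plxnb1, lower after MABs-allo-VEGF by 3.21 on the log2 scale (SE 1.17, limma adjusted p = 0.664), and edgeR and DESeq2 called 0. Its samples ran from 38.0 to 240 after MABs-allo and from 0 to 60.5 after MABs-allo-VEGF.

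At 7d the treatments were compared in the same way. In limma 0 guidance genes were called in each of the 3 comparisons, as were 0.0% of all genes, and edgeR and DESeq2 called 0 guidance genes. Over all genes edgeR called 0 in each comparison. DESeq2 called 0 of 16240 after MABs-allo, 26 after MABs-allo-VEGF and 4 between both cell treatments. Unadjusted p fell below 0.05 for 1 gene after MABs-allo, 2 after MABs-allo-VEGF and 2 between both cell treatments, and for 6.23%, 6.34% and 2.78% of all genes. Sema3d had 27.1, 14.9, 40.2 and 9.43 after saline, 49.6, 298, 15.01 and 91.3 after MABs-allo and 160, 39.9, 55.9 and 75.7 after MABs-allo-VEGF, with log2 fold changes of 1.72 and 1.81 against saline (limma adjusted p = 0.783 and 0.748). Plxnb1 had reads in 1 of the 12 samples, 2 reads in MABs-allo replicate 7.2.

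When the cell treatments were compared at 7d, MABs-allo-VEGF minus MABs-allo, the largest rises were those of Slit1 (2.49), Sema3a (1.70) and Ephb1 (1.45), and the largest falls those of Sema3e (-1.09), Robo1 (-0.92) and Plxnc1 (-0.89), all with an adjusted p of 1 in limma. For Slit1 the samples were 3.63, 8.56, 96.2 and 0 against 0, 0, 3.34 and 0, so that replicate 11 alone held most of the counts. That library also had the highest sum of Schwann cell markers in the series, 62963 against 3238 to 36472 in the other 23 samples, and their part in the Slit1 value was not tested.

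Days were compared within each treatment. After MABs-allo 11 guidance genes were higher at 3d than at 7d and 2 were lower, 23.6% of the 55 where 23.0% of all genes were called. After MABs-allo-VEGF 8 were higher and 1 was lower, 16.4% against 15.3%. After saline 2 were higher, 3.64% against 3.19%. Each share of guidance genes was close to that of all genes.

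The genes called higher at 3d after both cell treatments were Ntn1, Sema3a, Sema3d, Plxna1, Plxna4, Plxnb1, Plxnc1 and Robo1. For Ntn1 the log2 difference between days was 6.004 (SE 1.03, limma adjusted p = 0.000256) after MABs-allo and 5.07 (limma adjusted p = 0.00145) after MABs-allo-VEGF. Its MABs-allo samples at 7d had 3.10, 13.2, 0 and 0, and all 4 saline samples had 0. Plxna1 fell from 315 to 1001 at 3d to 33.1 to 65.1 at 7d after MABs-allo, a difference of 3.72 (SE 0.67, limma adjusted p = 0.000364), and the groups did not overlap. After MABs-allo-VEGF it fell from 84.6 to 1233 to 37.1 to 77.6, a difference of 2.89 (SE 0.67, limma adjusted p = 0.00387).

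Several of these genes had almost no reads at 7d, so counts give the size better than the fit. Plxna4 had 71 reads in MABs-allo at 3d and 1 at 7d, a ratio of 169 (95% exact counting interval 29.3 to 6760). Sema3a had 43 and 1, a ratio of 102 (interval 17.4 to 4131), and Plxnb1 80 and 2, a ratio of 95.1 (interval 25.5 to 799). After MABs-allo-VEGF, Robo1 had 84 reads at 3d and 1 at 7d, a ratio of 146 (interval 25.5 to 5838). Plxnb1 had 18 reads at 3d and 0 at 7d, at least 2.66-fold higher when 7d is set at 3 reads in each library. These intervals cover counting error only.

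Sema3d, a secreted semaphorin, was called higher at 3d in all 3 treatments by limma on the 24 samples, and no other guidance gene was. Ntn1, called after both cell treatments, was not called after saline, where it had 34.4, 0, 10.7 and 17.6 at 3d and 0 in all 4 samples at 7d. After saline Sema3d had 582, 31.4, 239 and 303 at 3d and 27.1, 14.9, 40.2 and 9.43 at 7d, a log2 difference of 3.20 (SE 0.77, limma adjusted p = 0.0246). After MABs-allo the Sema3d range was 480 to 973 at 3d and 15.01 to 298 at 7d (difference 3.36, limma adjusted p = 0.00229), and after MABs-allo-VEGF 338 to 1195 and 39.9 to 160 (difference 3.38, limma adjusted p = 0.00363). Without saline 3d replicate 6 the saline difference was 2.67 and its adjusted p 0.138 in limma. The other gene called after saline was Plxnd1, a plexin of blood vessels and the receptor of Sema3e. It had 1136, 1654, 940 and 1070 at 3d and 572, 553, 445 and 362 at 7d without overlap, a difference of 1.30 (SE 0.30, limma adjusted p = 0.0201). The saline comparison also called 0 guidance genes without saline 7d replicate 5, where the adjusted p of Plxnd1 was 0.086 in limma, 4 without saline 3d replicate 8, and 1 without saline 3d replicate 9 or 10 or saline 7d replicate 3. Over all genes limma called 520 with the 24 samples. Counts over all genes in the fits without a sample are not given here, so these guidance gene counts cannot be set against them.

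Called in MABs-allo alone between days were Efnb2 (2.54), Sema6a (3.91) and Epha4 (1.096), higher at 3d, and Sema6b (-1.55) and Unc5b (-1.24), lower at 3d. Unc5b had 315 to 1257 at 3d and 911 to 1419 at 7d after MABs-allo, and its differences after saline (-1.17) and MABs-allo-VEGF (-0.97) were not called. Sema6b had 222 to 279 at 3d and 285 to 1627 at 7d, without overlap. Sema4b was lower at 3d after MABs-allo-VEGF by 1.31 on the log2 scale (limma adjusted p = 0.0252), with 108 to 649 at 3d and 686 to 1147 at 7d. Some of the calls between days held in few of the 8 fits that leave out a sample, Unc5b in 2 after MABs-allo, and Plxnc1 in 2 and Plxnb1 in 1 after MABs-allo-VEGF. Whether these differences between days are particular to a treatment was asked with the interaction of treatment and day against saline. In limma it called 0 guidance genes and 0.0% of all genes with either cell treatment. Unadjusted p fell below 0.05 for 7 guidance genes with MABs-allo and 4 with MABs-allo-VEGF, and for 13.6% and 8.23% of all genes. Both edgeR and DESeq2 called 0 guidance genes. Over all genes edgeR again called 0, whereas DESeq2 called 78 of 16240 when the cells were MABs-allo and 1 when they overexpressed VEGF. Without saline 3d replicate 6 alone limma called 2 guidance genes in the MABs-allo interaction. Without the 2 libraries 4 were called for each (Plxna1, Plxna4, Plxnb1 and Robo1), where 3.55% and 3.59% of all genes were called.

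**Figure D4:**
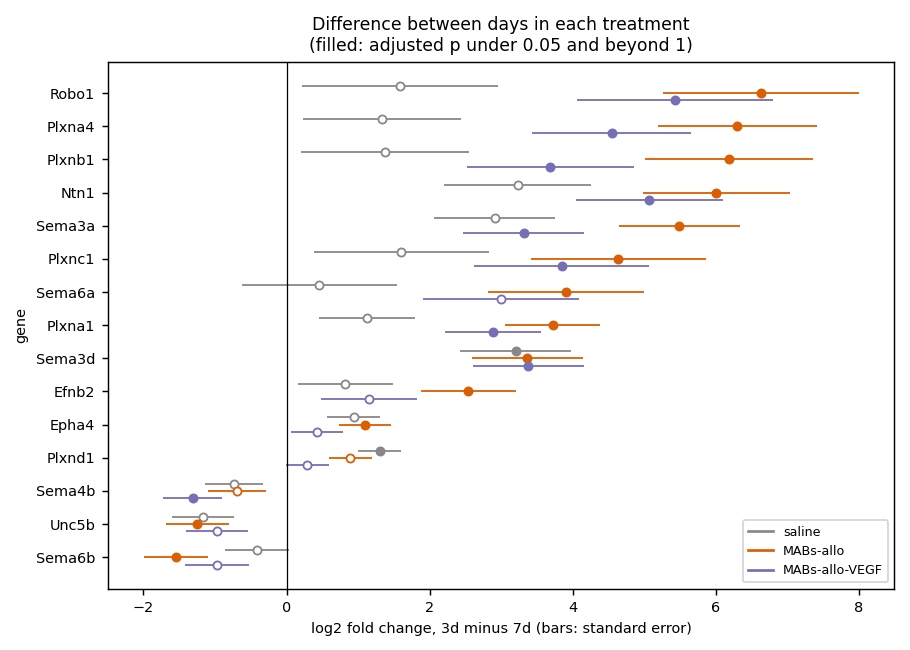
Log2 fold change of 3d minus 7d with its standard error in each treatment, for the 15 guidance genes called in at least 1 of them, filled where called. Sema3d is filled in all 3 treatments, and 8 genes are filled after both cell treatments.

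Ligands and receptors were set against each other over the 6 groups. The summed normalized count of the 35 ligands was 13922 ± 1558 (SD, n = 4) after saline, 17599 ± 4521 after MABs-allo and 14635 ± 3435 after MABs-allo-VEGF at 3d. The 32 receptors summed to 9318 ± 1089, 11083 ± 2168 and 9327 ± 629 in the same order. The log2 ratio of ligands to receptors was 0.58, 0.65 and 0.62 at 3d, and 0.41, 0.50 and 0.27 at 7d. Its range over samples was 0.47 to 0.73, 0.52 to 0.76 and 0.40 to 0.87 at 3d.

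Differences in this ratio between treatments were smaller than the larger SD of the groups compared, at both days. Between days they exceeded it after saline (0.17, larger SD 0.12) and after MABs-allo-VEGF (0.36, larger SD 0.25) but not after MABs-allo (0.15, larger SD 0.26). The ratio is led by abundant genes, since Sema3c and Efnb2 hold 22.6% and 12.7% of the ligand sum. When each gene counts equally, as the mean log2 value of ligands minus that of receptors, the difference had the other sign in 6 of the 9 comparisons. Among these, MABs-allo minus saline at 3d was -0.48 (larger SD 0.47), against 0.07 by the sums. For 3d minus 7d after MABs-allo it was -0.48 (larger SD 0.39), against 0.15 by the sums. For 3d minus 7d after MABs-allo-VEGF it was -0.13 (larger SD 0.44), against 0.36 by the sums. Both differences of -0.48 thus exceeded the larger SD of the groups compared, the first of them only slightly. After saline 3d minus 7d kept its sign, at 0.07 (0.17 by the sums). By class, 4 of 30 ligands (13.3%) and 5 of 25 receptors (20.0%) were called after MABs-allo at 3d, where 12.3% of all genes were. Between days in the same treatment 6 of 30 ligands and 7 of 25 receptors were called, where 23.0% of all genes were. No p is given for these class values, because the genes were chosen with earlier results of these data known.

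**Figure D5:**
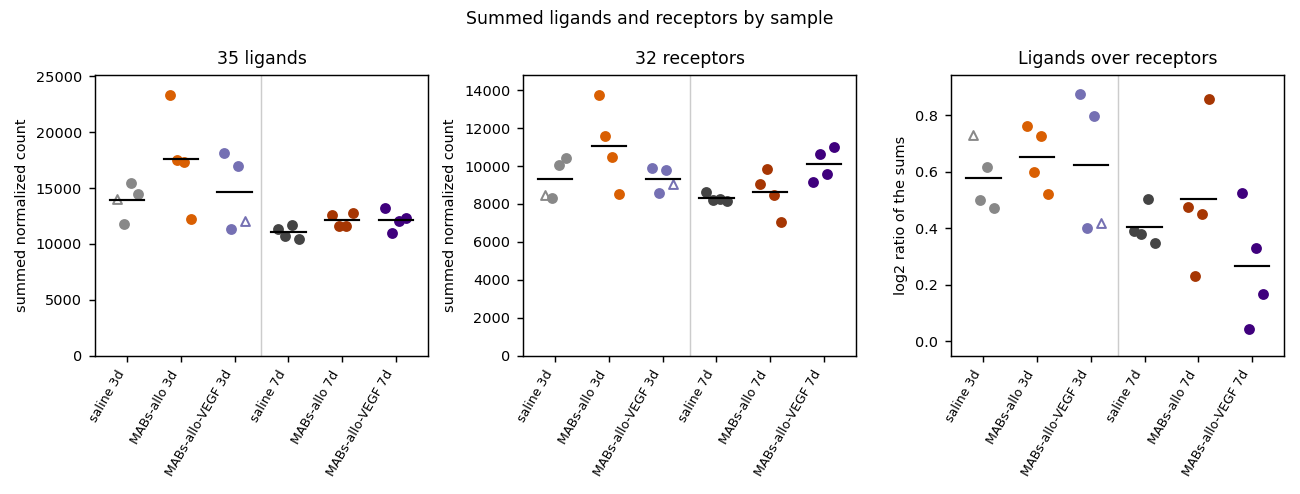
Summed normalized count of the 35 ligands and the 32 receptors, and the log2 ratio of the sums, in each sample by group with the mean as a line and open triangles for replicate 6 of saline and replicate 4 of MABs-allo-VEGF, both at 3d. The ratio runs from 0.04 to 0.87 over the 24 samples.

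Other genes of the pathway were taken from lists by name. Of 15 tested co-receptors and further cues, 2 were higher after MABs-allo at 3d, Draxin (a netrin antagonist, 3.60, limma adjusted p = 0.0185) and Met (a receptor that associates with plexin-B1, 3.54, limma adjusted p = 0.0205), and 0 were lower. Over all genes 12.3% were called, so the 2 of 15 lie near the background, and edgeR called 1 of the 15 and DESeq2 2. Neuropilin-1 (Nrp1), the partner of A-type plexins for Sema3a, had 960 to 1997 after saline and 966 to 1674 after MABs-allo. Draxin had 0 reads in all 12 samples of 7d. After MABs-allo-VEGF limma called 0 of these co-receptors and cues, edgeR 0 and DESeq2 1, with 4 at an unadjusted p below 0.05.

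Of 14 tested axon growth markers, limma called 0 after MABs-allo at 3d, with 2 at an unadjusted p below 0.05, 0 in edgeR and 1 in DESeq2. After MABs-allo-VEGF limma, edgeR and DESeq2 called 0, with 1 at an unadjusted p below 0.05. Gap43, a growth cone protein, had 1408 to 1866 after saline, 812 to 2079 after MABs-allo and 877 to 2650 after MABs-allo-VEGF at 3d, and 67.0 to 450 over the 12 samples of 7d. Between days limma called 2 of the 14 markers higher at 3d after saline (Gap43 and Prph), and 1 after each cell treatment (Gap43), and 7, 8 and 9 of the 14 had a value above 0 for 3d minus 7d. The mean sum of the list was lower at 3d, at 25177 ± 5842 (SD, n = 4) against 41264 ± 10718 at 7d after saline, 26131 ± 7700 against 39237 ± 11715 after MABs-allo and 25621 ± 3206 against 29633 ± 6079 after MABs-allo-VEGF. The 3d and 7d ranges of this sum overlapped in each treatment. Gap43 was higher at 3d by 2.91 after saline (limma adjusted p = 0.00233), by 2.06 after MABs-allo (limma adjusted p = 0.00118) and by 2.21 after MABs-allo-VEGF (limma adjusted p = 0.00112).

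Markers of cell types that could hold these RNAs moved in the same samples. After MABs-allo at 3d, limma called 0 of 7 Schwann cell markers, with 4 at an unadjusted p below 0.05, but edgeR and DESeq2 each called 3, and all 7 were lower. Their sum was 9018 to 36472 after saline and 3238 to 9492 after MABs-allo. Of 5 neuron markers all 3 tools called 0, and 0 had an unadjusted p below 0.05. Of 4 endothelial and 5 smooth muscle markers all 3 tools called 0, with 1 of each at an unadjusted p below 0.05. Of 4 adipocyte markers limma and edgeR called 0 and DESeq2 2, with 0 at an unadjusted p below 0.05 in limma. In limma 4 of 5 mast cell markers were lower (Cpa3, Tpsb2, Hdc and Cma1), as were 3 of 5 macrophage markers (Csf1r, C1qa and C1qb) and 2 of 5 fibroblast markers (Dcn and Lum). edgeR and DESeq2 called 3 and 4 mast cell, 3 and 4 macrophage, and 1 and 2 fibroblast markers. Higher in limma were 2 of 5 myoblast markers (Pax7 and Myh3), where edgeR and DESeq2 called 0, and 2 of 5 skeletal muscle markers (Tnnt3 and Mylpf), where edgeR called 0 and DESeq2 3. Of 7 epithelial markers each tool called 1, which was Krt14 in limma. The summed macrophage markers were 7572 to 16153 after saline and 660 to 6456 after MABs-allo. Small noncoding RNA took 0.00753% to 0.0164% of the counts after saline and 0.0198% to 0.132% after MABs-allo, with saline replicate 6 at the top of its group. The part of these markers and of this share in the guidance genes was not tested.

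Cell type markers also moved between days. After MABs-allo, limma called 3 of 5 myoblast markers higher at 3d (Pax7, Myod1 and Myog), and called lower 4 of 4 adipocyte markers, 4 of 5 mast cell markers, 2 of 5 macrophage markers (C1qa and C1qb) and 2 of 5 smooth muscle markers (Acta2 and Des). Of 7 epithelial markers 1 was higher (Krt14) and 1 lower (Upk2). After MABs-allo-VEGF 2 myoblast markers were higher (Pax7 and Myog) and 1 smooth muscle marker was lower (Acta2). After saline 1 marker was lower in each of the smooth muscle (Acta2), epithelial (Upk2) and adipocyte (Lep) lists, and 1 endothelial marker was higher (Kdr). The summed myoblast markers were 5396 to 12140 at 3d and 932 to 4026 at 7d after MABs-allo, and 6074 to 11426 and 1680 to 4525 after MABs-allo-VEGF, without overlap. Limma called no other marker of the 11 cell type lists between days. Of the co-receptors and cues it called higher Nrp1 after saline, Draxin, Met and Flrt1 after MABs-allo, and Draxin, Met and Flrt2 after MABs-allo-VEGF. The part of these markers in the differences of guidance genes between days was not tested.

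The library pair with few epithelial markers was also low in a set of guidance genes. Sema4g had 19.6 in saline 3d replicate 8 and 16.7 in MABs-allo-VEGF 3d replicate 2, against 170 or more in the other 22 samples. Epha1 had 7.84 and 8.33 there, against 41.5 or more elsewhere. In the same pair Efnb2 had 169 and 567, each the lowest of its group. Plxna1 did not share this pattern, with 176 in saline replicate 8 and 1233, its highest value of all, in MABs-allo-VEGF replicate 2. The saline library also held the highest sum of neuron markers, 2191 against 224 to 785 elsewhere, and its high Plxnb3 (176), Sema4f (290) and Sema4c (2136) were the top values of these genes in the series. What part cell makeup has in these values was not tested.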

How the data were processed

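Urethral RNA from 24 samples in 6 groups of 4 was made into 3′ mRNA libraries with the QuantSeq kit. The authors used HISAT2 and Rnor6.0 for alignment, dropped reads that mapped to several places, and took gene counts from HTSeq. The deposited signal is that count over the DESeq2 size factor of the sample. Dividing by the value of a lone read gave whole numbers for 100% of values (tolerance 0.001), and so recovered the reads. Between replicates the counts differed by more than counting error. Groups came from the labels.

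Genes with a mean normalized count of at least 2 (16287 of 32883) were tested as log2(normalized count + 1) by limma 3.58.1 under R 4.3.3 (a linear model of the 6 groups with trended empirical Bayes variances), two-sided, with Benjamini-Hochberg adjustment over all tested genes. On this scale the added 1 shrinks the change of low genes. Samples at 0 can instead make the fitted change larger than the ratio of group means. Plxnb1 at 3d was such a case, with means of 145 after MABs-allo and 11.2 after saline. Fitted log2 fold changes of low genes are therefore no lower bounds. edgeR 4.0.16 (quasi-likelihood, TMM) and DESeq2 1.42.0 on the recovered reads, a pseudocount of 5, no filter or a filter at 10, quantile normalization, equal totals, only the groups compared, and leaving out samples were alternatives. The count tests without the 2 libraries were chosen after seeing the data. The members, gene lists and tests were chosen with earlier results of these data known. Genes were named when called, among the 10 highest, or among the 3 largest rises or falls in each 3d comparison with saline and between cell treatments at 7d, and Efnb3 because the paper names it. Genes of the co-receptor and axon growth lists were named when called by limma. Other values were chosen after they were seen. In simulated reads for MABs-allo against saline at 3d, 200 of 16287 genes were given a log2 change of 2. Limma recovered 196 with 24 false calls, edgeR 196 with 7 and DESeq2 196 with 1. The changed genes had higher means than called genes such as Plxnb1 (30.5) and Plxnc1 (25.1). Every simulated gene also had the same spread, so these rates do not measure power or error for low genes in these libraries. Cap23, Myh1, Myh2 and Pecam1 of the lists had no row of that symbol in the table. A further gene list is not reported here. Gene positions in Rnor6.0 and gene length were not used here. Promoter positions are those of GRCr8.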

Additional observations from a re-analysis of the deposited data

Results flagged for a closer look

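A highest or lowest sample lay far from the other 3 of its group in 4 cases of 82 tested, by Dixon's ratio of the gap to the range. Chance alone sets apart about 1 group in 20, and 20 groups with 3 reads or fewer in every sample were not tested. Plxnb1 had 44.8 normalized counts in saline 3d replicate 6 and 0 in the other 3 samples. Sema6a had 16.6 in MABs-allo 7d replicate 13, from 4 reads, and 0 in the other 3. Sema4b had 1547 in saline 7d replicate 3, where the others had 582 to 617. Efnb3 had 37.2 in MABs-allo-VEGF 7d replicate 11, where the others had 15.8 to 18.1. No cause of these values was tested.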

How the results depend on the processing

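Direction held for all 33 gene results past the thresholds under all 627 alternatives run on them, of which 512 kept the call and 115 lost it. The alternatives reuse the samples that gave the calls, so a kept direction is no independent support. For MABs-allo against saline at 3d (9 guidance genes) the count was 0 with only the groups compared (11 of all genes, from 1997), 2 with edgeR and 4 with DESeq2. For MABs-allo-VEGF against saline at 3d (0) it was 1 with a pseudocount of 5 and 1 with DESeq2. Without the 2 libraries it was 7 with limma, 9 with DESeq2 and 9 with edgeR. Over all genes limma called 5 with the 24 samples and 2214 without the 2 libraries, and DESeq2 called 397 with the 24 samples. For saline between days (2) it was 0 with only the groups compared and 5 with DESeq2. Without the 2 libraries it was 0 with limma, 4 with DESeq2 and 1 with edgeR. Over all genes limma called 520 with the 24 samples and 31 without the 2 libraries, and DESeq2 called 1386 with the 24 samples. The interactions of treatment and day (0 each) also gave calls without the 2 libraries. With limma, DESeq2 and edgeR in turn there were 4, 2 and 1 genes for MABs-allo and 4, 3 and 1 for MABs-allo-VEGF. Limma then called 579 and 585 of all genes, from 0 each, and DESeq2 called 78 and 1 with the 24 samples. For DESeq2 and edgeR without the 2 libraries no count over all genes is given here. Their guidance gene counts in this paragraph therefore have no background beside them. With each sample left out in turn there were 1 to 12 genes for MABs-allo and 0 to 5 for MABs-allo-VEGF against saline at 3d, 0 to 4 for saline, 11 to 14 for MABs-allo and 6 to 12 for MABs-allo-VEGF between days, 0 to 2 for the MABs-allo interaction and 0 for the other comparisons. Counts over all genes moved too where they are given above, so the guidance gene counts alone show nothing particular to these genes. The fit with only the groups compared has fewer samples, and otherwise the cause was not tested.

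Numbers 1 to 4 are shared by MABs-allo and MABs-allo-VEGF at 3d. Deviations of same-numbered samples correlated at 0.22, 0.15, 0.07 and 0.25, and those of differently numbered samples at -0.22 to 0.20. These values cannot decide whether same-numbered samples share more than a number. With the replicate block 0 guidance genes were called, as without it. A gene with a few reads per sample cannot be read as absent at this depth.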
